A study of Mus musculus with 21 samples.

Results

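Wild-type megakaryocyte-erythroid progenitors (MEP) were compared with wild-type hematopoietic stem cells (HSC) from mouse bone marrow. The comparison used 5 of the 21 libraries of a low-input RNA sequencing series, chosen by their labels: MEP replicates 1 and 3, and HSC replicates 1, 2 and 3. All 5 carried wild-type (WT) Etv6, the gene of an ETS-family transcriptional repressor, and the other 16 libraries carried Etv6 P216L, S211I or both changes. Cells were isolated by fluorescence-activated sorting, RNA was extracted with NucleoSpin RNA XS, and cDNA was made with SMART-Seq v4, a kit for very small RNA inputs. No treatment is named in the labels. The labels do not give strain, age, sex, sort gates, cell numbers or whether animals were pooled. Nor do they say that libraries of a group came from separate animals, so p-values measure only the spread between libraries, which may be technical. Each gene's spread was estimated within the groups of all 21 libraries, not from the 5 WT libraries alone.

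Stem cells sit at the top of blood formation, divide rarely and can rebuild every blood lineage after transplantation. MEP are dividing progenitors that give rise to red cells and to megakaryocytes, the cells that shed platelets. Commitment to red cells involves the transcription factors Gata1 and Klf1, the erythropoietin receptor, and the enzymes that make heme.

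The 2 groups differed in depth before any gene was compared. HSC libraries held 151215, 410304 and 480421 counts, and MEP libraries 5783946 and 12130393. In HSC 5448, 6418 and 8013 genes had at least 1 count, against 14167 and 15889 in MEP. After each library was thinned at random to 151215 counts, the HSC libraries showed 5448, 5984 and 7400 genes and the MEP libraries 9041 and 9169. MEP libraries therefore held more genes at equal depth than any of the 3 HSC libraries, with a gap of 1641 genes between the groups. Across genes, Pearson's r of log CPM was 0.979 between the MEP libraries and 0.364, 0.383 and 0.564 between HSC pairs; genes are not independent replicates. The biological coefficient of variation, the relative spread between libraries beyond counting error, was 1.79 within HSC WT and 0.188 within MEP WT. How much of any difference below comes from depth or from the spread among HSC libraries was not tested.

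**Figure D1:**
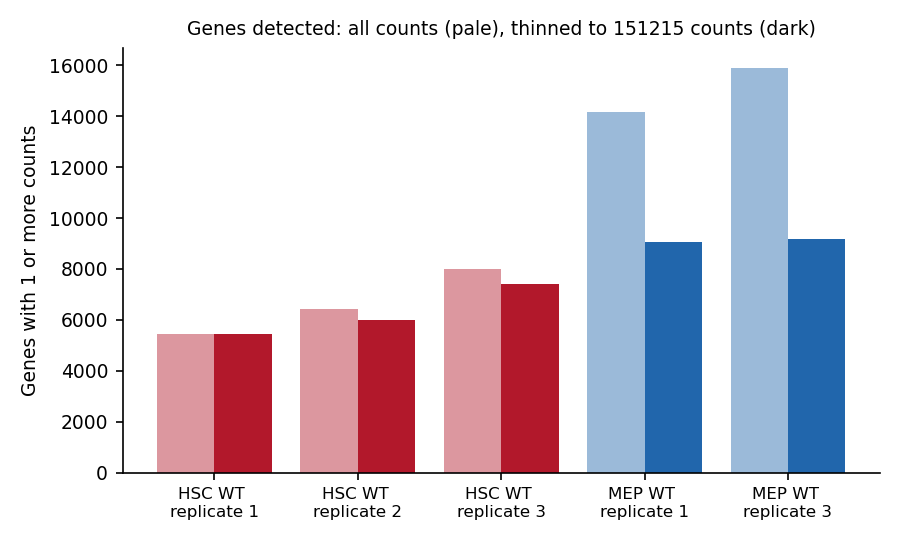
Genes with at least 1 count in each of the 5 WT libraries, with all counts (pale bars) and after thinning to 151215 counts (dark bars), red for HSC and blue for MEP. At equal depth the HSC libraries reach at most 7400 genes and the MEP libraries at least 9041.

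The 6 genes that mark these cell types separated the libraries in the direction that the labelled cell types would give. Values are CPM, counts per 1000000 counts, on library sizes scaled by the trimmed mean of M values (TMM), and fold changes are log2, MEP minus HSC, with their SE. Procr, the endothelial protein C receptor found on stem cells, stood at 264, 14.6 and 235 CPM in HSC and at 0 in both MEP libraries. It was at least 871-fold lower in MEP, a bound that gives MEP 3 counts over its summed libraries (adjusted p = 0.0138). Meis1, a homeobox factor needed to keep stem cells, gave 252, 506 and 591 CPM in HSC against 3.50 and 8.17 CPM in MEP (log2 fold change -6.25 ± 1.39, adjusted p = 0.0118). Mmrn1, which encodes the matrix protein multimerin of platelets and stem cells, had 643, 1759 and 1705 CPM in HSC and 18.7 and 5.48 CPM in MEP (-6.82 ± 1.21, adjusted p = 0.00226). For these 3 genes no MEP library reached the lowest HSC library.

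Of the progenitor markers, Car1, a carbonic anhydrase of red cell precursors, stood at 35.5, 424 and 947 CPM in HSC and 10638 and 10199 CPM in MEP (4.47 ± 0.91, adjusted p = 0.0119). Car2, the carbonic anhydrase that erythroid cells keep at high level, had 1183, 2685 and 3429 CPM in HSC against 14957 and 12926 CPM in MEP (2.52 ± 0.42, adjusted p = 0.00174). Gfi1b, a repressor that both red cell and megakaryocyte development require, had 74.9, 47.3 and 117 CPM in HSC and 561 and 610 CPM in MEP (2.87 ± 0.67, adjusted p = 0.016). All 3 were higher in both MEP libraries than in any HSC library, although HSC libraries were not free of them. Leaving out any 1 of the 5 libraries kept Car2 called; Mmrn1 was lost without MEP replicate 3 (adjusted p = 0.0627), Procr, Meis1 and Car1 without either MEP library (adjusted p of 0.0621 to 0.17), and Gfi1b without either MEP library or HSC replicate 2 (0.0522 to 0.0885), with no change of direction. Not every textbook stem cell marker was seen: Slamf1, the receptor also called CD150, had 0 counts in all 3 HSC libraries, which allows up to 11.8, 5.46 and 5.51 CPM, a limit on counting error only. In bulk samples, fewer cells of a type and less RNA per cell cannot be told apart.

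**Figure D2:**
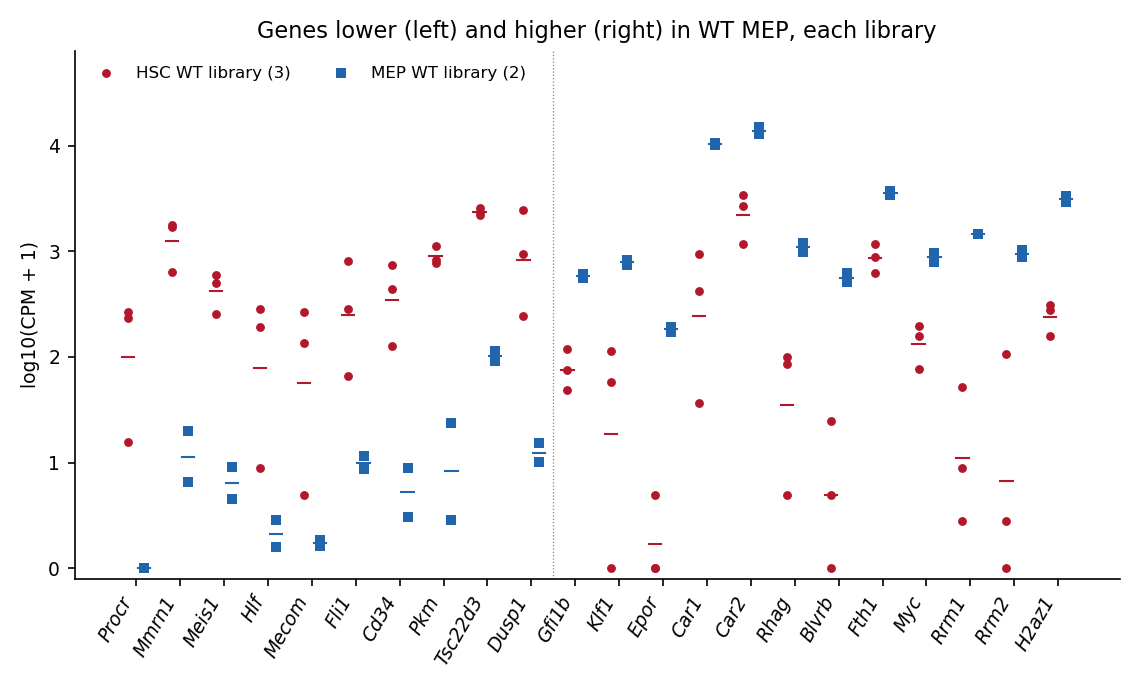
CPM of 22 genes in each WT library, as log10(CPM + 1); red circles are the 3 HSC libraries, blue squares the 2 MEP libraries, and short lines the mean of the plotted values. The 10 genes left of the dotted line are lower and the 12 to its right higher in MEP, and for each of the 22 the 2 groups do not overlap.

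Because the 6 markers move with the cell type, the 250 bases before the transcription start were searched for motifs in the 4 of 6 whose promoter is in the RefSeq table used (GRCm38.p6): Procr, Meis1, Mmrn1 and Gfi1b. The motifs were AGATAA and TGATAA, core sites of GATA factors such as Gata1 and Gata2, and the CACCC box read by Klf1 and related factors, on both strands; matches are in capitals, and sequences run 5′ to 3′ on the gene's strand.
Gfi1b, chr2:28621983-28622232, minus strand: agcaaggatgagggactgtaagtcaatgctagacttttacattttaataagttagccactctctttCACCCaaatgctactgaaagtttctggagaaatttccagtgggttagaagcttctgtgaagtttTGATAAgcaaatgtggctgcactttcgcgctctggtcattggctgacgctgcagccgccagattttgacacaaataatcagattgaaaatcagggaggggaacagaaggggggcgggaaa
Mmrn1, chr6:60944067-60944316, plus strand: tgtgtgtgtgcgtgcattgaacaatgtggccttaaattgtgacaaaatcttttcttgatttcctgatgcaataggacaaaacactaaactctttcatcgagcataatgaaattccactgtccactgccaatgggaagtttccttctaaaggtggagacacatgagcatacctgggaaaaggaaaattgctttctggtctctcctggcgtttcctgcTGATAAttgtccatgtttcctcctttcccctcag
Procr, chr2:155750967-155751216, plus strand: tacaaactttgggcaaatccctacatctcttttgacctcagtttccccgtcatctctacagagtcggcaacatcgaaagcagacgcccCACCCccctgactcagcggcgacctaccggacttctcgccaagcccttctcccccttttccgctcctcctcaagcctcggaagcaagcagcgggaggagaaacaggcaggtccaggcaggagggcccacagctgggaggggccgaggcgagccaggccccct
Meis1, chr11:19018970-19019219, minus strand: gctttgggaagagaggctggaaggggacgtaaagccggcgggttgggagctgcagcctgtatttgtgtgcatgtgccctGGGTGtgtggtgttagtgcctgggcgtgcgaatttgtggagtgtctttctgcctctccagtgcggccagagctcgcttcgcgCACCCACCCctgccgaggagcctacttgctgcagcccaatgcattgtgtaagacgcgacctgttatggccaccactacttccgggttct
Gfi1b, which was higher in MEP, held TGATAA 120 bases and CACCC 184 bases before its start, and Mmrn1, which was lower, held TGATAA 34 bases before its start. Procr held 1 CACCC, 162 bases before its start, and Meis1 held 3, of which 1 was on the opposite strand and the others overlapped. AGATAA or TGATAA was found in 16.6% of the 32851 promoters of the same length in the table, in 10.2% of the 12325 promoters of genes tested, in 13.1% of the 466 promoters of genes called higher and in 15.9% of the 63 promoters of genes called lower. CACCC was found in 52% of all promoters, 56.6% of those of genes tested, 63.1% of those of genes called higher and 57.1% of those of genes called lower. A match describes the letters and is not a measured binding site.

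Across the genome, 493 of 12036 genes tested were called, meaning an adjusted p below 0.05 with edgeR's quasi-likelihood test (4.1% of genes tested). Of these, 436 were higher in MEP (3.62%) and 57 were lower (0.474%). All 436 higher genes and 53 of the 57 lower genes had groups that did not overlap. Over all genes tested, both MEP libraries lay above all 3 HSC libraries for 5309 genes (44.1%) and below them for 678 (5.63%). Among the genes called higher, 239 had no count in any HSC library. The median log2 fold change of all genes tested was 0.90, and 0.47 with genes at 0 in 1 group set to their bound. That median, not 0, is the level against which the list medians below are read. The counts of list members called are read against the 3.62% higher and 0.474% lower of all genes tested.

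The calls depended on scaling, variance model and library. With relative log expression (RLE) size factors, which moved fold changes by a median of -0.66, 194 of the 436 higher calls and 56 of the 57 lower calls remained, and 72.9% of all calls were higher in place of 88.4%. With library totals alone, added after seeing the data, the shift was -0.60, 219 higher and 56 lower calls remained, and 75.5% of calls were higher. With voom weights by cell type 47 higher and 55 lower calls remained, and 21.1% of its calls were higher. With voom sample weights 387 and 56 remained, and with DESeq2 417 and 55. Without the low-count filter 316 higher and 36 lower calls remained, and after thinning 356 and 42. A fit of the 5 WT libraries alone called 0 genes with edgeR, with 1558 of 7631 at an unadjusted p under 0.05, against 3340 in the joint fit; no exact permutation of 2 against 3 libraries can give a two-sided p under 0.2. Without MEP replicate 1 or 3, which leaves 1 MEP library assumed to vary like the other groups, 135 and 136 genes were called, of which 1 and 3 were lower. Without HSC replicate 2 there were 222 calls, and without HSC replicates 1 and 3 there were 362 and 622. The joint fit also held a library labelled HSC S211I replicate 2 with 13154030 counts and 9409 genes at equal depth, both above every MEP library of the series (3387395 to 12130393 counts and 9041 to 9296 genes). Without it 716 genes were called, the 493 among them.

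**Figure D3:**
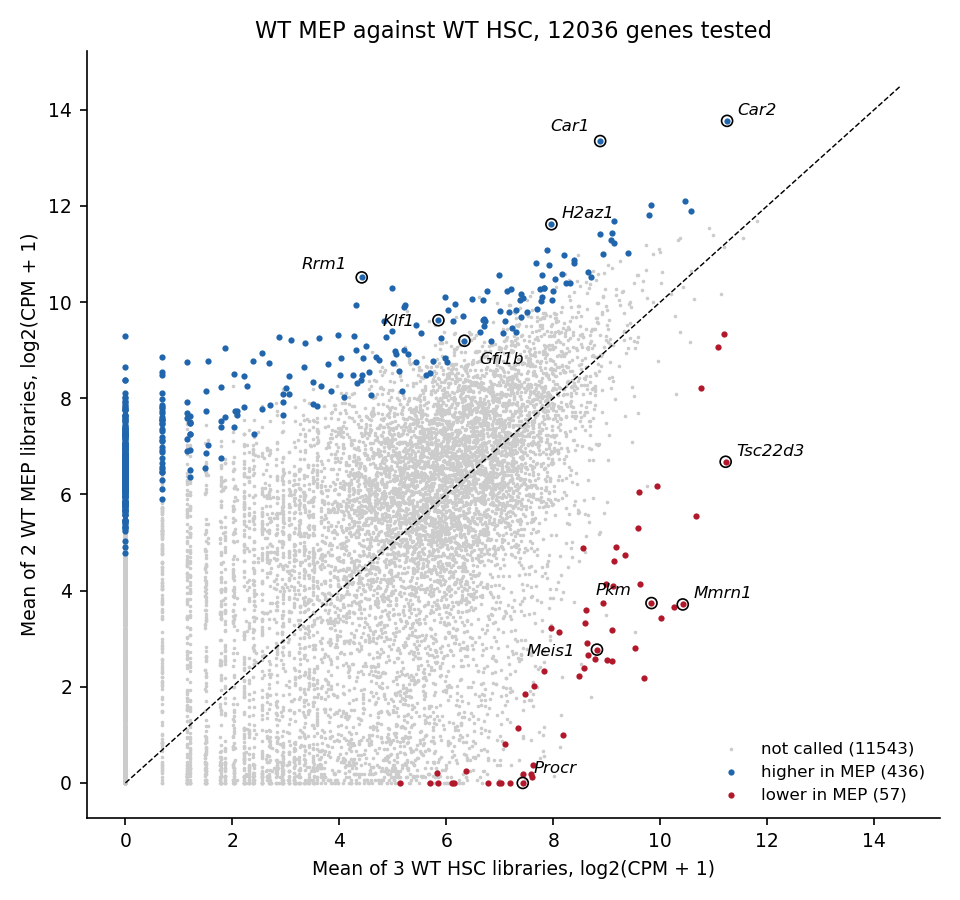
Mean CPM in WT MEP against mean CPM in WT HSC for 12036 genes, both as log2(CPM + 1); blue points are the 436 genes called higher, red the 57 called lower, grey the rest, and the dashed line marks equal values. Many higher genes lie on the left edge, where all 3 HSC libraries are at 0, and most lower genes lie well above 0 in HSC.

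**Figure D4:**
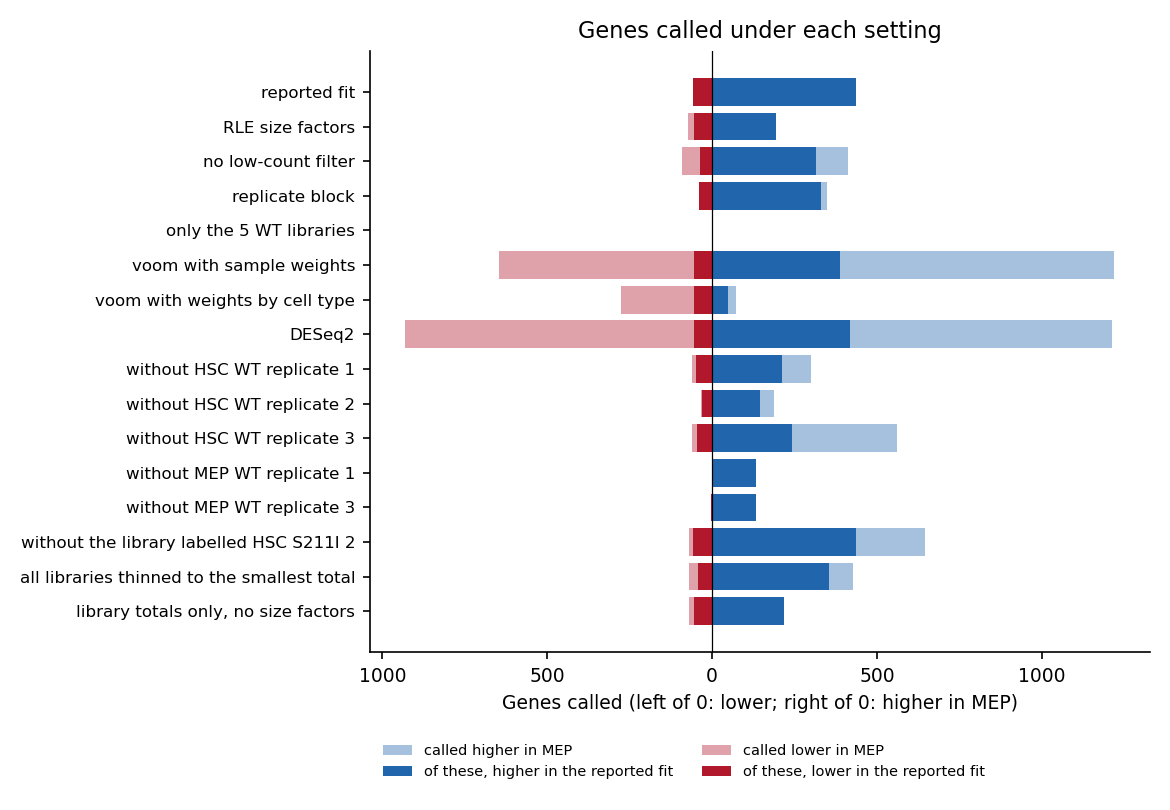
Genes called lower (red, left of 0) and higher (blue, right of 0) in MEP under the reported fit and 15 other settings; the dark part of each bar counts genes also called in that direction in the reported fit. Under the other scalings, voom and DESeq2 the dark red part stays at 55 to 56, and the dark blue part runs from 47 to 417. Over all settings the dark red part runs from 0 to 57 and the dark blue part from 0 to 436.

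Transcription factors that maintain stem cells had lower members and no higher ones. Of 28 tested, 5 were lower in MEP, 0 were higher, and the median was -3.68 against 0.90 for all genes; the same count of 5 was lower under RLE and under library totals. Hlf, a leucine zipper factor restricted to stem and early progenitor cells, had 7.89, 284 and 193 CPM in HSC and 1.85 and 0.577 CPM in MEP (-7.05 ± 1.91, adjusted p = 0.0347). Mecom, the gene of Evi1, had 3.94, 267 and 136 CPM in HSC and 0.617 and 0.865 CPM in MEP (-7.45 ± 2.17, adjusted p = 0.048). In both, HSC replicate 1, the shallowest library, lay far under the other HSC libraries but above MEP.

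Fli1, an ETS factor of stem cells, megakaryocytes and endothelium, had 284, 65.5 and 802 CPM in HSC and 7.61 and 10.5 CPM in MEP (-5.40 ± 1.52, adjusted p = 0.0407). Nkx2-3, a homeobox gene, had 98.6, 65.5 and 44.1 CPM in HSC and 0 in both MEP libraries, at least 353-fold lower (adjusted p = 0.0421). Meis1 is the other called member. Among members that did not pass, Mycn had 67.0, 187 and 228 CPM in HSC against 2.68 and 7.5 CPM in MEP (adjusted p = 0.0799), and Hoxa9 90.7, 80.0 and 231 CPM against 6.38 and 13.8 CPM (adjusted p = 0.119). Etv6 itself, WT in all 5 libraries, read 312, 184 and 176 CPM in HSC and 27.2 and 38 CPM in MEP (-2.78 ± 1.11, adjusted p = 0.111): the groups did not overlap, and the test did not pass. In 11 of the 28 members both MEP libraries lay below all HSC libraries, 39.3% against 5.63% of all genes tested.

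Surface proteins of stem cells gave 4 lower and 0 higher of 27 tested, with a median of -4.22. Cd34, a sialomucin of early blood cells and endothelium, had 126, 440 and 743 CPM in HSC against 2.06 and 7.88 CPM in MEP (-6.44 ± 1.73, adjusted p = 0.0337). Mmrn1 and Procr, described above, are also among the 4. Ly6a, the Sca-1 antigen used to sort mouse stem cells, gave 39.4, 32.7 and 5.51 CPM in HSC and 0 and 0.0961 CPM in MEP without passing (adjusted p = 0.0545), and Cd27, a TNF receptor family member, 78.9, 29.1 and 180 CPM against 0.823 and 3.27 CPM (adjusted p = 0.0631). Kit, the stem cell factor receptor that both cell types carry, had 304, 508 and 1182 CPM in HSC and 661 and 798 CPM in MEP, with overlapping groups (adjusted p = 0.94).

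Megakaryocyte and platelet genes had lower members and none called higher by edgeR. Of 18 platelet receptor genes tested, 0 were higher and 2 were lower, among them Mmrn1, which also stands in the stem cell list; the median was -3.23. An unadjusted edgeR p under 0.05 was reached by 8 of the 18. In 3 both MEP libraries lay above all HSC libraries, 16.7% against 44.1% of all genes tested. In 5 both lay below, 27.8% against 5.63%. DESeq2 called 2 higher and 6 lower, and voom with sample weights 1 and 5. Itgb3, the beta chain of the fibrinogen receptor, had 189, 173 and 71.6 CPM in HSC and 1.44 and 1.35 CPM in MEP (adjusted p = 0.102). Gp5, of the von Willebrand factor receptor, went the other way, with 0, 1.82 and 0 CPM in HSC and 60.7 and 79.7 CPM in MEP (adjusted p = 0.0742). Vwf itself was seen in 1 HSC library at 206 CPM and in MEP at 11.7 and 4.81 CPM (adjusted p = 0.438). Of 19 platelet cytoskeleton genes 2 were lower: Arpc1b, a subunit of the actin-branching complex, with 907, 659 and 773 CPM in HSC and 48.2 and 82.4 CPM in MEP (-3.58 ± 0.89, adjusted p = 0.024), and Actn1, an actin crosslinker, with 39.4, 0 and 114 CPM in HSC and 0 in MEP (adjusted p = 0.0427), whose groups touch at 0.

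Quiescence and immediate early genes gave 3 lower genes and 1 higher. Tsc22d3, a glucocorticoid-induced leucine zipper gene and FoxO target, was the most even of the lower genes among HSC libraries, with 2216, 2378 and 2570 CPM, and had 90.6 and 112 CPM in MEP (-4.56 ± 0.91, adjusted p = 0.00638). It was the 1 called member of 19 quiescence genes and cyclin-dependent kinase inhibitors, whose median was -2.23. Of 17 immediate early genes, which switch on within minutes of stimulation and also during tissue handling, 2 were lower and 1 was higher. In 9 both MEP libraries lay below all HSC libraries, 52.9% against 5.63% of all genes tested. Under RLE 1 was lower and 0 were higher. Dusp1, a phosphatase of MAP kinases, had 2468, 935 and 242 CPM in HSC and 14.4 and 9.04 CPM in MEP (-6.69 ± 1.47, adjusted p = 0.0107). Jun had 3178, 1121 and 567 CPM in HSC and 77.2 and 14.9 CPM in MEP (-5.14 ± 1.45, adjusted p = 0.0407). Both were highest in HSC replicate 1, the library with the fewest counts. Fos read 1455, 580 and 178 CPM in HSC and 15.4 and 0.288 CPM in MEP without passing (adjusted p = 0.0786). The higher member was Myc, described with the ribosome genes.

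Markers of neutrophils and marrow stroma summed to more in every HSC library than in either MEP library, though few single genes passed. Of 18 neutrophil and monocyte genes tested 1 was lower, Lyz2, the lysozyme of myeloid cells, with 170, 149 and 356 CPM in HSC and 3.50 and 4.61 CPM in MEP (-5.78 ± 1.35, adjusted p = 0.0159). The granule gene S100a9 had 209, 25.5 and 158 CPM against 0.823 and 0.865 CPM (adjusted p = 0.062). Summed plain CPM of the 22 listed neutrophil and monocyte genes was 706.8 to 1863 in HSC and 12.28 to 42.21 in MEP, while the primary granule gene Elane had 0 counts in every HSC library. Of 18 endothelial and stromal genes tested edgeR called 0, with 8 at an unadjusted p under 0.05, while DESeq2 and voom with sample weights each called 6 lower and voom with weights by cell type 2; their median was -4.62, and the 24 listed summed to 818 to 3527 plain CPM in HSC and 86.27 to 158.6 in MEP. Cxcl12, the niche chemokine, was at 0, 946 and 297 CPM in HSC and 1.23 and 3.65 CPM in MEP (adjusted p = 0.104). Lymphoid genes pointed in different directions by sum and by median. The 23 listed summed to 133.2 to 542.3 plain CPM in HSC and 33.02 to 57.87 in MEP, but each HSC library held only 3 or 4 of them, against 17 and 22 in the MEP libraries, and 16 were at 0 in all HSC libraries. Of the 15 tested edgeR called 0, with 3 at an unadjusted p under 0.05, and DESeq2 called 2 higher and 2 lower. Their median was 4.78, or 0 with genes at 0 in 1 group set to their bound. In 7 both MEP libraries lay above all HSC libraries, 46.7% and so near the 44.1% of all genes tested. In 0 they lay below, against 5.63% of all genes. The 16 mast cell genes summed to 848.2 to 1528 plain CPM in HSC and 326.6 to 342 in MEP, from 2 or 3 detected genes in each HSC library, with 12 at 0 in all of them. Gata2, given below with the erythroid factors, held 1151, 168.2 and 260.2 of these CPM in HSC and 52.56 and 72.79 in MEP. Cpa3 had 108.2 in HSC replicate 3 and Ms4a2 46.29 in HSC replicate 1. Mcpt8, Mcpt4, Cma1, Fcer1a and Epx had 0 counts in every WT library. Of the 4 tested edgeR called 0, with 0 at an unadjusted p under 0.05, and DESeq2 called 1 lower. Of 10 macrophage genes 1 was higher, the iron exporter Slc40a1, and 0 under RLE. The part of such cells in the lower genes was not tested.

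The antigen presentation and interferon lists each had 1 lower and 0 higher members, with medians of -0.78 and -1.53. H2-K1, a classical MHC class I heavy chain, had 1972, 2172 and 2340 CPM in HSC and 447 and 625 CPM in MEP (-2.01 ± 0.52, adjusted p = 0.028), and was the 1 called of 19 class I presentation genes. Its near-identical relatives can share reads, so the split among H2 genes is uncertain; H2-Q6 had 292, 347 and 415 CPM against 23.1 and 72.7 CPM (adjusted p = 0.107). In 10 of the 19 both MEP libraries lay below all HSC libraries, 52.6% against 5.63% of all genes tested. Of 22 interferon response genes 1 was lower, Ifitm1, a membrane protein that blocks viral entry, with 280, 162 and 151 CPM in HSC and 3.09 and 2.98 CPM in MEP (-6.01 ± 1.52, adjusted p = 0.0258).

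Among erythroid and megakaryocyte transcription factors, 2 of 22 were higher and 1, Fli1, was lower, and the list's median was -0.11; under RLE 1 was higher and 1 lower. Klf1, the activator of globin and red cell membrane genes, had 0, 56.4 and 114 CPM in HSC and 829 and 744 CPM in MEP (3.76 ± 0.85, adjusted p = 0.0131). Gfi1b was the other. Gata1, the GATA factor of both lineages, had 3.94, 38.2 and 121 CPM in HSC and 523 and 573 CPM in MEP: the groups did not overlap, and the test did not pass (3.31 ± 1.11, adjusted p = 0.0718). Gata2, the GATA factor that Gata1 replaces during red cell development, had 686, 126 and 229 CPM in HSC and 62.6 and 84.9 CPM in MEP (adjusted p = 0.282). Spi1, which encodes PU.1 of myeloid cells, had 134, 109 and 117 CPM in HSC and 2.26 and 7.40 CPM in MEP (adjusted p = 0.0807).

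Of 27 red cell membrane, carbonic anhydrase and globin genes tested, 6 rose in MEP and 0 fell, with a median of 2.52. In 20 members both MEP libraries lay above all HSC libraries, 74.1% against 44.1% of all genes tested. Under RLE and under library totals 3 of the 27 were higher, and with voom weights by cell type 0; with those weights no list had more than 3 higher members. Cldn13, a claudin of mouse erythroid cells, had 0 counts in HSC and 375 and 287 CPM in MEP, at least 149-fold higher (adjusted p = 0.00355). Rhag and Rhd encode subunits of the red cell Rh complex. Rhag had 3.94, 98.2 and 84.4 CPM in HSC and 1202 and 992 CPM in MEP (4.11 ± 1.19, adjusted p = 0.0454), and Rhd 11.8, 0 and 97.3 CPM against 1019 and 950 CPM (4.73 ± 1.32, adjusted p = 0.0391). Kel, the Kell blood group protease, had 0 counts in HSC and 159 and 152 CPM in MEP, at least 69.8-fold higher (adjusted p = 0.0348).

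The adult globin genes share near-identical copies, so their separate values are uncertain. Hba-a2 had 1140, 169 and 327 CPM in HSC and 427 and 270 CPM in MEP (adjusted p = 0.738), and Hbb-bs 875, 40.0 and 266 CPM against 292 and 191 CPM (adjusted p = 0.751). Both groups overlapped, with the highest value in HSC replicate 1.

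Of 17 genes of erythropoietin receptor signalling 1 was called, the receptor itself, 5.88% against 3.62% of all genes called higher; under RLE it was 0. Epor had 3.94, 0 and 0 CPM in HSC, from 1 count, and 172 and 191 CPM in MEP (adjusted p = 0.0269); the pooled counts gave a 249-fold difference, with a 95% exact interval of 44.7 to 9840 that covers counting error only. Stat5a, which carries its signal, had 0, 1.82 and 140 CPM in HSC and 210 and 197 CPM in MEP (adjusted p = 0.315).

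Of 20 genes on the heme synthesis list 5 rose and 0 fell (median 2.57), and of 19 iron genes 4 rose and 0 fell (median 1.63). Under RLE size factors 3 and 2 were higher, and the medians were 1.86 and 0.91 against 0.17 for all genes. Blvrb, on the heme list although it is a reductase of heme breakdown products, had 3.94, 0 and 23.9 CPM in HSC and 624 and 509 CPM in MEP (5.87 ± 1.09, adjusted p = 0.00339). Uros and Urod, enzymes of the middle of the pathway, both passed. Uros had 0 counts in HSC and 85.0 and 83.7 CPM in MEP, at least 37.9-fold higher (adjusted p = 0.0156), and Urod had 27.6, 58.2 and 58.7 CPM against 347 and 369 CPM (2.88 ± 0.84, adjusted p = 0.0494).

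Alas2, which starts the pathway in erythroid cells, stayed low in both, with 27.6, 0 and 0 CPM in HSC and 19.1 and 20.7 CPM in MEP (adjusted p = 0.717), while Fech, which inserts the iron, had 7.89, 213 and 347 CPM against 1098 and 1150 CPM (adjusted p = 0.0589). Of the iron genes, Fth1, the heavy chain of ferritin, had 619, 1166 and 877 CPM in HSC and 3770 and 3440 CPM in MEP (2.02 ± 0.37, adjusted p = 0.00298). Slc11a2, which moves iron out of endosomes, and Steap3, which reduces it there, had 0 counts in HSC. Slc11a2 stood at 155 and 168 CPM in MEP (at least 72.4-fold higher, adjusted p = 0.0113) and Steap3 at 68.5 and 69.9 CPM (at least 31.1-fold higher, adjusted p = 0.0278). The transferrin receptor Tfrc had 3.94, 23.6 and 270 CPM in HSC and 490 and 431 CPM in MEP (adjusted p = 0.202).

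Of 26 genes that make deoxynucleotides 8 were higher and 0 lower, 30.8% against 3.62% of all genes, with a median of 2.96. Rrm1, the large subunit of ribonucleotide reductase, had 7.89, 1.82 and 51.4 CPM in HSC and 1467 and 1452 CPM in MEP (6.12 ± 0.84, adjusted p = 3e-04). Its small subunit Rrm2 had 0, 1.82 and 106 CPM in HSC and 1021 and 879 CPM in MEP (4.67 ± 1.14, adjusted p = 0.0215). Both subunits were far above every HSC library in both MEP libraries.

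The guanine nucleotide enzymes Impdh2 and Gmps and the folate enzyme Mthfd1 also rose. Impdh2 had 11.8, 5.46 and 5.51 CPM in HSC and 605 and 578 CPM in MEP (6.35 ± 1.01, adjusted p = 0.00152), Gmps had 0, 0 and 14.7 CPM against 466 and 508 CPM (6.48 ± 1.07, adjusted p = 0.00174), and Mthfd1 154, 122 and 167 CPM against 1254 and 1208 CPM (3.06 ± 0.61, adjusted p = 0.00581). Dck, which salvages deoxycytidine, had 0 counts in HSC and 161 and 145 CPM in MEP, at least 68.9-fold higher (adjusted p = 0.0345). Under RLE 5 of the 26 were higher.

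Replication and mitosis genes also had higher members and no lower ones. Of 40 replication licensing and fork genes 6 were higher and 0 lower (median 2.74), and of 42 mitosis genes 6 were higher and 0 lower (median 2.01); 5 and 6 were higher under RLE. Mcm2 and Mcm3, subunits of the replicative helicase, passed. Mcm2 had 0, 0 and 56.9 CPM in HSC and 964 and 998 CPM in MEP (5.62 ± 1.26, adjusted p = 0.0128), and Mcm3 had 3.94, 102 and 20.2 CPM against 729 and 733 CPM (4.09 ± 0.95, adjusted p = 0.0155). The loader Cdt1 had 0 counts in HSC and 225 and 178 CPM in MEP, at least 90.5-fold higher (adjusted p = 0.0258).

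In mitosis, Racgap1, a regulator of cytokinesis, had 0 counts in HSC and 139 and 177 CPM in MEP, at least 71.1-fold higher (adjusted p = 0.00174), and Ncaph, a condensin subunit, 0 counts against 207 and 223 CPM, at least 96.7-fold higher (adjusted p = 0.00677). Of 16 cyclin and kinase genes edgeR called 0 (median 1.44), and DESeq2 called 2 higher and 1 lower. In 12 of the 16 both MEP libraries lay above all HSC libraries, 75% against 44.1% of all genes tested. Ccna2, the S and G2 phase cyclin, had 0, 89.1 and 101 CPM in HSC and 472 and 448 CPM in MEP (adjusted p = 0.0789), and Cdk1 had 0, 200 and 55.1 CPM in HSC and 224 and 227 CPM in MEP (adjusted p = 0.414).

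Of 30 chromatin assembly genes 5 were higher and 0 lower (median 1.63). H2az1, which encodes the histone variant H2A.Z, had the smallest adjusted p of all genes: 158, 277 and 312 CPM in HSC and 3377 and 2906 CPM in MEP (3.66 ± 0.46, adjusted p = 0.000144). Npm1, a histone and ribosome chaperone of the nucleolus, had 126, 146 and 386 CPM in HSC and 1589 and 1437 CPM in MEP (2.78 ± 0.56, adjusted p = 0.00638). Of 21 DNA methylation and Polycomb genes 1 was higher, 4.76% and so near the 3.62% of all genes called higher. It was Asxl1, with 0 counts in HSC and 111 and 99.5 CPM in MEP (at least 47.2-fold higher, edgeR adjusted p = 0.0229).

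**Figure D5:**
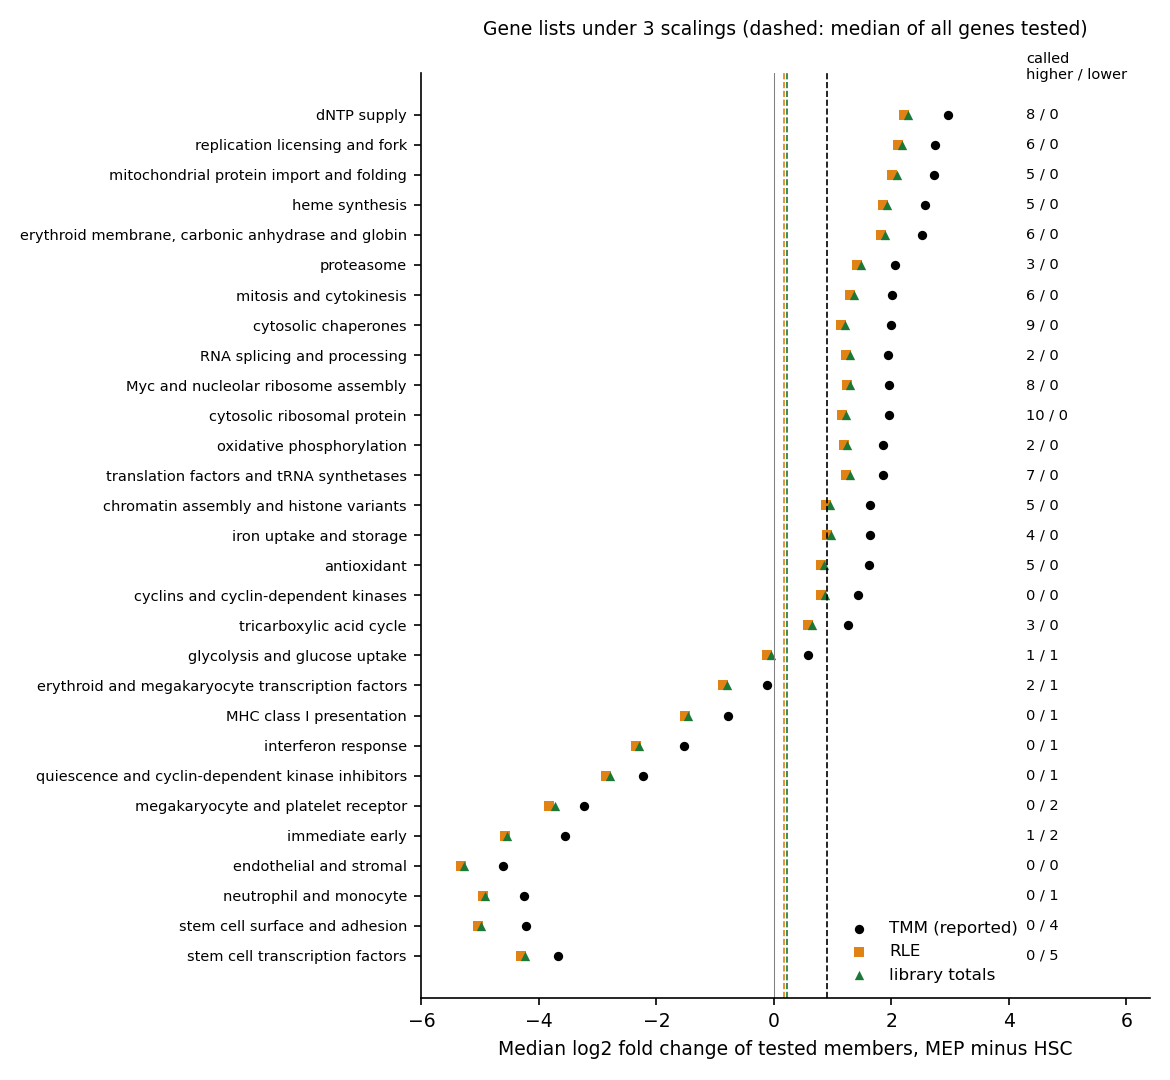
Median log2 fold change, MEP minus HSC, of the tested members of 29 gene lists under TMM (black circles), RLE (orange squares) and library totals alone (green triangles); dashed lines mark the median of all genes under each, and the numbers at the right count members called higher and lower in the reported fit. Under all 3 scalings the stem cell lists lie left of -3 and the dNTP supply list right of 2. The glycolysis list lies left of the median of all genes under each.

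Ribosome assembly, ribosomal protein and translation genes gave higher members and no lower ones. Myc, a factor that drives ribosome assembly, had 158, 196 and 75.3 CPM in HSC and 790 and 971 CPM in MEP (2.62 ± 0.57, adjusted p = 0.00967), while its relative Mycn, given above, had the opposite order. Of 40 Myc and nucleolar genes 8 were higher and 0 lower (median 1.96; 4 higher under RLE). Ncl, the nucleolar protein nucleolin, had 406, 542 and 679 CPM in HSC and 2465 and 2539 CPM in MEP (2.20 ± 0.50, adjusted p = 0.0131).

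Of 78 cytosolic ribosomal protein genes 10 were higher and 0 lower, with a median of 1.96, and in 74 both MEP libraries lay above all HSC libraries, 94.9% against 44.1% of all genes. Under RLE 2 of the 78 were higher. Rplp0, of the ribosomal stalk, had 142, 420 and 316 CPM in HSC and 2088 and 1926 CPM in MEP (2.77 ± 0.49, adjusted p = 0.00219), and Rpl4 had 367, 426 and 606 CPM against 2807 and 2625 CPM (2.54 ± 0.48, adjusted p = 0.00388). Processed copies of these genes can share reads with them. Of 35 translation factors and tRNA synthetases 7 were higher and 0 lower (median 1.85; 4 higher under RLE). Eif5a, which helps ribosomes past proline stretches, had 682, 1062 and 980 CPM in HSC and 4237 and 4082 CPM in MEP (2.19 ± 0.39, adjusted p = 0.00219). Of 33 splicing genes 2 were higher, Hnrnpc and Hnrnpu, and 0 lower (median 1.95, and 1 higher under RLE). The share higher was 6.06% against 3.62% of all genes.

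Mitochondrial lists had medians above that of all genes, and their shares of genes called higher differed. Of 56 nuclear genes of oxidative phosphorylation 2 were higher, 3.57% against 3.62% of all genes, although all 56 fold changes were above 0 and the median was 1.86; under RLE 1 was higher. Atp5b, the catalytic subunit of ATP synthase, had 879, 400 and 397 CPM in HSC and 3282 and 3330 CPM in MEP (2.57 ± 0.44, adjusted p = 0.00204). Mitochondrial import and folding gave 5 higher and 0 lower of 22 (median 2.73, and 3 higher under RLE). The share higher was 22.7% against 3.62% of all genes. In all 22 both MEP libraries lay above every HSC library, 100% against 44.1% of all genes tested. Hspd1, the mitochondrial chaperonin, had 78.9, 520 and 121 CPM in HSC and 1840 and 1649 CPM in MEP (2.86 ± 0.61, adjusted p = 0.00908). Of 23 tricarboxylic acid cycle genes 3 were higher, 13% against 3.62% of all genes, and 0 lower (1 higher under RLE). Idh3a, an isocitrate dehydrogenase subunit, had 150, 85.5 and 149 CPM in HSC and 929 and 871 CPM in MEP (2.82 ± 0.60, adjusted p = 0.00908).

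Of 28 glycolysis genes 1 was higher and 1 lower, 3.57% each against 3.62% and 0.474% of all genes. The list median was 0.59 against 0.90 for all genes. It was -0.12 against 0.17 under RLE and -0.05 against 0.23 under library totals, so it lay lower under each scaling. Pkm, the pyruvate kinase gene of most tissues, had 777, 826 and 1134 CPM in HSC and 1.85 and 22.9 CPM in MEP (-6.19 ± 1.20, adjusted p = 0.00481). Pklr, the pyruvate kinase gene of red cells and liver, had 0, 0 and 123 CPM in HSC and 236 and 203 CPM in MEP, without passing (2.39 ± 1.55, adjusted p = 0.329). The lactate dehydrogenase genes showed a like order of values without passing: Ldhb had 11.8, 338 and 308 CPM in HSC and 9.67 and 6.25 CPM in MEP (adjusted p = 0.0978), and Ldha 438, 482 and 642 CPM against 1766 and 1735 CPM (adjusted p = 0.0716). Gapdh, the higher member, had 90.7, 478 and 182 CPM in HSC and 1090 and 1009 CPM in MEP (2.06 ± 0.58, adjusted p = 0.0406); it was not called under RLE.

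Of 25 cytosolic chaperones 9 were higher and 0 lower (36%, median 1.99), but 2 were higher under RLE and under library totals. Cct5, a subunit of the chaperonin that folds actin and tubulin, had 170, 420 and 263 CPM in HSC and 1597 and 1460 CPM in MEP (2.42 ± 0.52, adjusted p = 0.00908). Hspa8, the constitutive Hsp70, had 1199, 1412 and 1641 CPM in HSC and 4617 and 4114 CPM in MEP (1.62 ± 0.40, adjusted p = 0.0231). Of 34 proteasome genes 3 were higher, 8.82% against 3.62% of all genes, and 0 lower. Their median was 2.06, and 1 was higher under RLE and under library totals. Psmd7 led them with 23.7, 89.1 and 64.2 CPM in HSC and 653 and 560 CPM in MEP (3.34 ± 0.72, edgeR adjusted p = 0.00908).

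Of 27 antioxidant genes 5 were higher and 0 lower (median 1.62), but 1 was higher and 1 lower under RLE. Prdx2, the abundant peroxiredoxin of red cells, had 3.94, 171 and 58.7 CPM in HSC and 882 and 788 CPM in MEP (3.40 ± 0.82, adjusted p = 0.0194), and Gpx1, a glutathione peroxidase, 603, 877 and 549 CPM against 2256 and 1909 CPM (1.62 ± 0.43, adjusted p = 0.0319). Of 36 nuclear transport genes 4 were higher and 0 lower (median 2.02; 2 higher under RLE); Kpna2, an importin adaptor, had 0, 113 and 209 CPM in HSC and 1078 and 1305 CPM in MEP (3.45 ± 0.87, adjusted p = 0.0252).

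Relatives and partners of Etv6 gave 1 lower and 1 higher gene by edgeR. Of 19 ETS genes 1 was lower, Fli1, 5.26% against 0.474% of all genes, and 0 were higher. In 4 both MEP libraries lay below all HSC libraries, 21.1% against 5.63% of all genes tested. In 6 both lay above, 31.6% against 44.1%. DESeq2 and voom with sample weights each called 1 ETS gene higher and 4 lower. Of 17 co-repressor genes 1 was higher, 5.88% against 3.62% of all genes, and 0 under RLE. It was Tbl1x, with 0, 1.82 and 0 CPM in HSC, from 1 count, and 78.2 and 95.8 CPM in MEP (adjusted p = 0.0327); the pooled counts gave a 122-fold difference with a 95% exact counting interval of 21.8 to 4810. EdgeR called 0 of 19 TGF-beta signalling, 28 integrin, 27 autophagy, 10 imprinted and 17 p53 target genes, with 6, 4, 2, 4 and 3 at an unadjusted p under 0.05. DESeq2 called 1 higher and 4 lower in TGF-beta signalling, 1 and 2 among integrins, 2 and 1 in autophagy, 0 and 4 among imprinted genes and 0 and 0 among p53 targets.

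The 10 lower genes with the smallest adjusted p and groups that did not overlap included Serpina3g, Mmrn1, Adgrl4, Pkm, Pik3ip1, Tsc22d3, Ltb, Gcnt2 and Gimap6. Serpina3g, a serine protease inhibitor of stem and immune cells, had 414, 1419 and 1256 CPM in HSC and 7.41 and 12.1 CPM in MEP (-6.71 ± 1.18, adjusted p = 0.00218). Adgrl4, an adhesion receptor known from endothelium, had 225, 913 and 1068 CPM against 4.94 and 7.02 CPM (-6.93 ± 1.27, adjusted p = 0.00337). Pik3ip1, an inhibitor of PI3 kinase, had 438, 699 and 1230 CPM against 11.7 and 21.5 CPM (-5.56 ± 1.08, adjusted p = 0.00493). Gimap6, a GTPase of lymphocytes and stem cells, had 568, 617 and 466 CPM against 15.8 and 16.1 CPM (-5.10 ± 1.10, adjusted p = 0.00912). The cytokine gene Ltb and the glycosyltransferase gene Gcnt2, of the I blood group antigen, are also in the set, with adjusted p of 0.00865 and 0.00874.

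The 10 higher genes with the smallest adjusted p were H2az1, Uba2, Rrm1, Mtrex, Lgals9, C1qtnf12, Impdh2, Ppia, Atad2 and Racgap1. Uba2, a subunit of the enzyme that activates SUMO, had 7.89, 9.10 and 1.84 CPM in HSC and 617 and 612 CPM in MEP (6.65 ± 0.87, adjusted p = 0.000175). Mtrex, the RNA helicase that feeds the nuclear exosome, had 0, 1.82 and 0 CPM in HSC, from 1 count, and 347 and 367 CPM in MEP (adjusted p = 0.000969); the pooled counts gave a 486-fold difference, with a 95% exact counting interval of 87.3 to 19200. Lgals9, galectin-9, had 154, 327 and 228 CPM in HSC and 2088 and 2238 CPM in MEP (3.19 ± 0.49, adjusted p = 0.00115). Atad2, a chromatin ATPase of dividing cells, had 0 counts in HSC and 292 and 258 CPM in MEP, at least 124-fold higher (adjusted p = 0.0016). Ppia, cyclophilin A, had 390, 710 and 538 CPM against 2895 and 2623 CPM (2.34 ± 0.37, adjusted p = 0.00152), and the secreted C1qtnf12 had 23.7, 1.82 and 66.1 CPM against 1263 and 1248 CPM (5.35 ± 0.84, adjusted p = 0.00152).

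The same cell type difference could be set beside that of the other genotypes, which share no library with the WT one. Within P216L, with 3 libraries a cell type, 9 genes were called between MEP and HSC, and within the double mutant 29; the HSC libraries of those groups held 406023 to 850139 and 369439 to 2250656 counts. A test of the difference between the effects called 12 genes for WT against P216L (1947 at an unadjusted p under 0.05) and 2 for WT against the double mutant (1829). In Rrm1 the WT effect was larger than the P216L effect by 5.43 ± 1.02 (adjusted p = 0.0294); its HSC values were 372, 615.9 and 1504 CPM in P216L, against 7.89, 1.82 and 51.4 CPM in WT, while MEP values were 1407, 1297 and 1302 CPM and 1467 and 1452 CPM. In Uba2 it was larger by 5.19 ± 1.03 (adjusted p = 0.0367), with 214.4, 237.1 and 230.5 CPM in P216L HSC. For both genes the MEP groups were close and the HSC groups lay apart, so the difference stood in the HSC libraries. Without MEP WT replicate 1 or 3, without HSC WT replicate 2, or without any 1 MEP P216L library, 0 genes were called in the P216L comparison, and without any 1 other of the WT or P216L libraries there were 19 to 78. The P216L count was 1 with the replicate block and 5 without the HSC S211I replicate 2 library. For the double mutant 0 genes were called with RLE, library totals or the replicate block, or without HSC WT replicate 2, either MEP WT library, HSC double mutant replicate 1 or 3, or any 1 MEP double mutant library. Without HSC WT replicate 1 or 3 or HSC double mutant replicate 2 there were 23, 72 and 12.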

How the data were processed

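Gene expression was measured by low-input RNA sequencing in 21 libraries of 8 groups (cell type by Etv6 genotype), grouped by their titles. The deposited table holds estimated counts per gene; the authors' tools were FastQC and Salmon with the assembly GRCm39, per the submitters' processing notes, with tool versions not given in the sources used here. Values were rounded to whole counts. Of 30519 genes 30211 took a symbol from a GRCm38.p6 RefSeq table, and the rest held 0.044% of counts. No authors' coordinates were used, so promoter positions are those of the RefSeq table.

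All 21 libraries were fitted together with edgeR 4.0.16 (limma 3.58.1, R 4.3.3): TMM scaling, the filterByExpr filter (count 10, total 15), a robust quasi-likelihood test of MEP WT minus HSC WT, and Benjamini-Hochberg adjustment over 12036 genes at 0.05. HSC and MEP thus share 1 estimate of spread per gene. SE is the absolute log2 fold change over the square root of F. A group at 0 was given 3 counts over its summed libraries, and with 1 to 3 counts the pooled ratio has an exact 95% counting interval; such bounds leave out the spread between libraries. List counts and medians are descriptions without a test, and plain CPM uses library totals alone. The test was tried on simulated counts in which HSC and MEP shared 1 spread per gene. That trial does not cover the unequal spread of the HSC and MEP libraries.

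The comparison, the gene lists and the rules were chosen with earlier results of these data known. Named genes are the 6 markers, the 10 non-overlapping called genes with the smallest adjusted p in each direction, and per list up to 6 called and 4 uncalled members by smallest p, plus members of lists of at most 30 genes whose role is described; 1 called gene that these rules name is not reported here. Alternatives were RLE factors, no filter, a replicate block, the 5 WT libraries alone, voom with 2 kinds of weights, DESeq2 1.42.0, each library left out, the library labelled HSC S211I replicate 2 left out, and thinning. Library totals alone and the test of the difference between genotypes were added after seeing the data. No 2 WT libraries of a cell type were copies: their counts gave chi-square values of 9.41 to 34.4 per degree of freedom. Pairs in the mutant groups were not compared. Summed Y-linked counts were present in all 5 libraries, at 248 to 621 plain CPM.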

Additional observations from a re-analysis of the deposited data

Results flagged for a closer look

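The MEP minus HSC difference was larger in WT than in another genotype for 14 pairs of gene and genotype, by edgeR's test of the difference between the 2 effects, and in each the WT effect was the larger. For WT against P216L the fitted log2 differences were 5.43 in Rrm1, 5.19 in Uba2, 7.06 in Sec24c and 8.09 in Hpf1, with adjusted p of 0.0268 to 0.0398. For the genes with 0 counts in all WT HSC libraries the fitted value depends on the prior count and is no bound: 13.4 in Racgap1, 13.2 in Atad2, 13.2 in Pus7, 12.6 in Nxpe2, 12.2 in Mrpl19, 11.8 in Pcyt1a, 12.6 in Oser1 and 12.9 in Nde1, with adjusted p of 0.0268 to 0.047. For WT against the double mutant they were 5.86 ± 1.04 in Uba2 and 8.61 ± 1.55 in Mtrex, each with adjusted p = 0.0408. Both of these were lost with RLE size factors, library totals or the replicate block, and the P216L count fell from 12 to 1 with the block.

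In these genes the MEP libraries of the genotypes had like levels and the HSC libraries did not. Racgap1, for example, had 0 counts in the 3 WT HSC libraries, 662.7, 106.3 and 242.7 CPM in P216L HSC and 111.5, 162.9 and 145.5 CPM in double mutant HSC, while MEP had 139.3 and 177.3 CPM in WT, 137.5, 152 and 139.2 CPM in P216L and 177, 153.8 and 129.2 CPM in the double mutant. The WT HSC libraries were the shallowest group, at 151215 to 480421 counts. At equal depth they held 5448 to 7400 genes, against 3703 to 7736 in P216L HSC and 7339 to 8499 in double mutant HSC. The part of depth in these differences was not tested.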

How the results depend on the processing

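Genes called numbered 493 (436 higher, 57 lower). They were 266 (194 and 72) with RLE size factors, 290 (219 and 71) with library totals alone, 505 (413 and 92) without the low-count filter, 1865 (1220 and 645) with voom sample weights, 351 (74 and 277) with voom weights by cell type, 2144 (1213 and 931) with DESeq2, 0 (0 and 0) in the 5 WT libraries alone, and 497 (428 and 69) after thinning. Leaving out 1 library gave 135 to 622 calls, 133 to 561 higher and 1 to 61 lower. Whether replicate numbers pair the samples could not be decided, because with 2 MEP libraries the deviations from their mean mirror each other. Deviations of same-numbered libraries correlated at 0.0104 and -2.76e-05, and those of differently numbered libraries at -0.012 to 0.012. The replicate block gave 391 calls. Mean genes detected at equal depth were 6277 in HSC and 9105 in MEP, and 5811 and 8049 after thinning to 75607 counts.

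Among 113 genes named with a test, 84 were called (57 higher and 27 lower), and none of these reversed under any alternative. RLE kept the call in 41 of the 57 and 26 of the 27, library totals in 44 and 26, voom weights by cell type in 10 and 26, DESeq2 in 51 and 27, the replicate block in 55 and 23, and the 5 WT libraries alone in 0 and 0. Leaving out HSC WT replicates 1, 2 and 3 kept 43, 40 and 46 higher and 24, 20 and 24 lower, and leaving out MEP WT replicates 1 and 3 kept 33 and 35 higher and 1 and 2 lower. Genes not called reversed as follows. Kit was at -0.53 with RLE and with DESeq2, -0.058 in the 5 WT libraries, -0.21 to 0.85 leaving out 1 library, -0.27 after thinning and -0.46 with library totals. Hbb-bs was at 0.26 and 0.20 with the 2 forms of voom and -1.15 to 0.66 leaving out 1 library, Hba-a2 at -0.99 to 0.49, Alas2 at -0.29 after thinning, and Vwf at -3.64 to 8.0, the highest without HSC WT replicate 3, the 1 HSC library that held it. The cause of the other reversals was not tested.

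The genes differing between genotypes numbered 12 for P216L, 1 with the replicate block, 5 once the HSC S211I replicate 2 library was left out, and 0 to 78 leaving out 1 library. For the double mutant they were 2, then 0 with RLE, library totals or the block, 1 without the filter or that library, and 0 to 72 leaving out 1 library.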

Other observations

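Several genes outside the lists, chosen after their values were seen, were also called. The actin-related genes Lcp1, Coro1a, Dock2 and Tmsb4x were lower in MEP. Lcp1, which bundles actin, had 355, 551 and 782 CPM in HSC and 21.2 and 26 CPM in MEP (-4.58 ± 1.07, edgeR adjusted p = 0.0158). Coro1a had 517, 400 and 253 CPM against 5.97 and 16.1 CPM (-5.14 ± 1.21, adjusted p = 0.0166), and Dock2, an activator of the GTPase Rac, had 375, 771 and 808 CPM against 18.3 and 33.2 CPM (-4.66 ± 1.20, adjusted p = 0.0275). Tmsb4x, the actin-binding thymosin beta, had 915, 1314 and 716 CPM against 52.3 and 89.9 CPM (-3.79 ± 0.85, adjusted p = 0.0128). Cfl1 and Pfn1, also actin regulators, were not called. Their log2 fold changes of 0.99 and 0.94 lay near the median of 0.90 for all genes. The 19 platelet cytoskeleton genes tested had a median of -0.36. Cfl1 had 761, 742 and 773 CPM in HSC and 1541 and 1480 CPM in MEP (edgeR adjusted p = 0.116). Pfn1 had 655, 893 and 986 CPM against 1648 and 1600 CPM (adjusted p = 0.138). On plain CPM the Cfl1 groups overlapped, at 1276, 994.4 and 876.3 in HSC and 1295 and 1269 in MEP.

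Of the higher genes outside the lists, Slc25a5, a mitochondrial carrier of ADP and ATP, had 55.2, 224 and 332 CPM in HSC and 1873 and 1727 CPM in MEP (3.14 ± 0.54, adjusted p = 0.00204). Adk, adenosine kinase, had 0, 25.5 and 56.9 CPM against 797 and 752 CPM (4.76 ± 0.88, adjusted p = 0.00339), and the RNA-binding gene Hnrnpab had 86.7, 29.1 and 261 CPM against 1482 and 1546 CPM (3.59 ± 0.67, adjusted p = 0.00339). For all 3 both MEP libraries lay far above the highest HSC library.

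Calls were uneven over abundance. Split into 4 equal parts by mean log CPM over all 21 libraries, the genes called higher numbered 0, 25, 235 and 176 from the lowest to the highest part, and those called lower 12, 6, 15 and 24. In the same order, 97.2%, 91.3%, 75.4% and 33.5% of genes had 0 counts in at least 1 WT HSC library.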
